A study of Homo sapiens with 24 samples.

Results

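The 12 PRO-seq libraries that carry replicate number 1 or 2 were compared with each other, 6 against 6, out of the 24 libraries of the series. They come from T47D, a luminal breast cancer line, as Clones 28, 35 and 39, each in DMSO and in dTAG-13, so that every one of the 6 clone-by-treatment groups gave 1 library to each side. Libraries with replicate numbers 3 and 4 were not used. In PRO-seq (precision nuclear run-on sequencing), nascent RNA in engaged RNA polymerase is extended and sequenced, so counts in a gene follow its ongoing transcription rather than its stored mRNA.

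In all 12 libraries the endogenous TRPS1 gene carries a degradable FKBP tag with an HA epitope, and each of the 3 lines is a single clone, selected with puromycin and hygromycin. Cells received either 0.1% DMSO or 100 nM dTAG-13, a compound that brings the tagged TRPS1 protein to a ubiquitin ligase, for 90 minutes. TRPS1 is a GATA-family transcriptional repressor of luminal breast cells. The study's methods say that the replicates were treated and collected at different times within a day, and that both treatments were collected together. The comparison of numbers 1 and 2 therefore asks how much transcription differed between collections. Neither the labels nor the methods say which number came first or that clones with one number were handled at one time, so the numbers are used only as names. The DMSO and dTAG-13 libraries of a clone and number share a collection, so the comparison is one of at most 3 against 3 collections. It holds fewer if clones with one number were collected together. The p-values over 12 libraries measure the spread between these libraries.

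Several transcription programs are known to move within hours in cultured cells. Heat shock factor raises chaperone genes within minutes when proteins misfold. Replication-dependent histone genes are transcribed in S phase, and genes for the mitotic spindle and cyclin B peak in G2 and M phase. Sterol-sensing SREBP factors raise cholesterol and fatty acid synthesis genes when membrane sterol is short, and estrogen receptor alpha (ER) drives growth genes such as GREB1 and MYC in luminal breast cells.

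The upstream sequences of leading genes in 3 of these programs are shown because a letter pattern known for each program can be read in them. They are the 250 bases before the gene start, 5′ to 3′ on the gene's strand, from RefSeq on build GRCh38.p14. In the heat shock genes HSP90AA1 (chr14:102087045-102087294, minus strand, the more downstream of its 2 starts) and DNAJA1 (chr9:33025023-33025272, plus strand) capitals mark the heat shock element letters GAANNTTC or TTCNNGAA, which overlap in HSP90AA1. In the mitosis genes HMMR (chr5:163460382-163460631, plus strand) and DLGAP5 (chr14:55191586-55191835, minus strand) they mark TTTGAA or its complement, the core of the cell cycle homology region. In the histone genes H2AC6 (chr6:26123922-26124171, plus strand) and H2BC5 (chr6:26157872-26158121, plus strand) they mark CCAAT or its complement.
HSP90AA1: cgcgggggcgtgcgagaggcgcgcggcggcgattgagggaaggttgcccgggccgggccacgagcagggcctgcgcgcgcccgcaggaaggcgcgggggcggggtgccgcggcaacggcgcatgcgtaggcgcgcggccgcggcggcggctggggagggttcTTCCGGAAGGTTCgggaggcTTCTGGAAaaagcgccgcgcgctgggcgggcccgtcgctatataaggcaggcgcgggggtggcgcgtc
DNAJA1: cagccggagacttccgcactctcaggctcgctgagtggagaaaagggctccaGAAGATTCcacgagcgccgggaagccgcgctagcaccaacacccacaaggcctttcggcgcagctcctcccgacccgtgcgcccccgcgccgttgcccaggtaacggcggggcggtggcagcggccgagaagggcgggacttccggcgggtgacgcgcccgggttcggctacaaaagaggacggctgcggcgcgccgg
HMMR: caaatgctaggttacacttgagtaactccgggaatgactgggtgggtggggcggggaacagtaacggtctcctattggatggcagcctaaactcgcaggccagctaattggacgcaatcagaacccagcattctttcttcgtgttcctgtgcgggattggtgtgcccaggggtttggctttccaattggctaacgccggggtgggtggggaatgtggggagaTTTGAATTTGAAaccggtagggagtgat
DLGAP5: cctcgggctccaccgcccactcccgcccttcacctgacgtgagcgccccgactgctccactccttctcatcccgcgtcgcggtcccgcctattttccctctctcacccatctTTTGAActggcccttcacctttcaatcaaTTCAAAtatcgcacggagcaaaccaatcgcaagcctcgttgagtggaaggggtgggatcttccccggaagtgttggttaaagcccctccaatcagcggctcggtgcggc
H2AC6: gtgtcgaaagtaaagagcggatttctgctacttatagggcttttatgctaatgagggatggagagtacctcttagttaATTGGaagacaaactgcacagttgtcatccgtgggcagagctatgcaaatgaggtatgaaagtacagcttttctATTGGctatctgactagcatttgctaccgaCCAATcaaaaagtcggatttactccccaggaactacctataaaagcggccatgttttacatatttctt
H2BC5: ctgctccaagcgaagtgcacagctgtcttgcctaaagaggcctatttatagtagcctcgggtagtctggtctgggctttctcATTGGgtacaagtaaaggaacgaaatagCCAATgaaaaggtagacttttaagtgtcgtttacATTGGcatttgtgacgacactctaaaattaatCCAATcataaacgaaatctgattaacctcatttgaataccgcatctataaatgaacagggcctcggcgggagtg

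All motifs were searched on both strands of these windows. The heat shock element letters stood in 17 of 28 heat shock genes with a RefSeq window (60.7%), against 12.3% of 13379 tested genes. TTTGAA stood in 27 of 49 G2/M and mitosis genes (55.1%) and in 20 of 52 histone genes (38.5%), against 12.7%. It stood in 3 of 25 cholesterol and lipid genes (12%) and in 2 of 28 heat shock genes (7.14%). CCAAT stood in 43 of 52 histone genes (82.7%), in 40 of 49 G2/M genes (81.6%) and in 19 of 25 cholesterol and lipid genes (76%), against 40.6% of all genes. The sterol regulatory element letters TCACNCCAC stood in only 1 of 25 cholesterol and lipid genes (4%), against 1.16% of all genes. They stood in 2 of 28 heat shock genes (7.14%) and in 0 of the G2/M and histone genes. HSPH1, CENPE and H4C14, which also lead their lists, held no match to their list's letters in this window.

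Total counts in genes ranged from 4076614 to 5386063 over the libraries numbered 1 and from 3933945 to 5983480 over those numbered 2. The log2 ratio of totals averaged -0.101 over the 6 pairs (SD 0.348, exact sign-flip permutation p = 0.5, two-sided, smallest possible p 0.03125). All 12 luminal markers were measured, with ESR1 at 1510 to 1870 CPM (counts scaled to a common library size) over the 12 libraries, whereas KRT5, KRT14 and KRT17, which define basal cells, reached at most 0.254, 1.23 and 0.717 CPM. The other basal or myoepithelial markers were detected, with TP63 at 7.51 to 21.9, MYLK at 12.1 to 37 and ACTA2 at 3.42 to 12.7 CPM. Of the markers of other cells, 3 of 6 basal, 1 of 5 fibroblast, 1 of 3 endothelial and 3 of 5 blood markers could be tested, and 0 passed. The Clone 35 dTAG-13 pair stood apart: its replicate 2 library had the highest share of counts from the mitochondrial genome (2.59%, against 1.54% to 2.09% in the other 11 libraries). Its median difference over genes under 2 kb was the lowest, at -0.14, against -0.01 to 0.16 in the other pairs.

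Of 22173 genes tested, 1771 differed between the replicate numbers, 872 higher in replicate 1 and 899 higher in replicate 2. This is 7.99% of the genes tested, 3.93% in one direction and 4.05% in the other (quasi-likelihood test of edgeR, p adjusted by Benjamini-Hochberg, threshold 0.1, clone-by-treatment group in the model). The differences were small. The median size among these genes was 0.21 on the log2 scale, 130 exceeded 0.5 and 24 exceeded 1. In 643 of them the replicate 1 library was higher in all 6 pairs (2.9% of all genes tested) and in 629 it was lower in all 6 (2.84%), while 499 had at least 1 pair on the other side. Over all genes, 5.18% were higher in replicate 1 in all 6 pairs and 5.48% were lower in all 6.

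The count depended on the tool. DESeq2, with the same model and threshold, called 57 genes (39 higher in replicate 1 and 18 in replicate 2) and 745 at an unadjusted p under 0.05, where edgeR called 3836. DESeq2 gave no adjusted p for 14186 of the 22173 genes tested. Such genes count as not called wherever DESeq2 counts are given for a list. All 57 were among the 1771, and the DESeq2 estimates of all 1771 had the sign of the edgeR estimates. The median of the dispersion trend was 0.0492 in DESeq2, against 0.00708 in edgeR, and with a local trend, an alternative chosen after seeing the data, DESeq2 called 261. In simulated data edgeR's test recovered 66% of 200 genes changed by 0.5 with 20 false calls. It recovered only 15% (30 genes) changed by 0.25 with 11 false calls. In both simulations the false calls were a larger share of all calls than the threshold allows. Each simulation was a single draw of independent libraries, with no shared collection effect. The number of pairs in each direction is also given beside the tests. It comes from the same libraries as the tests, and both treatments of a clone and number share a collection. Agreement of pairs is thus no independent check of a call.

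**Figure D1:**
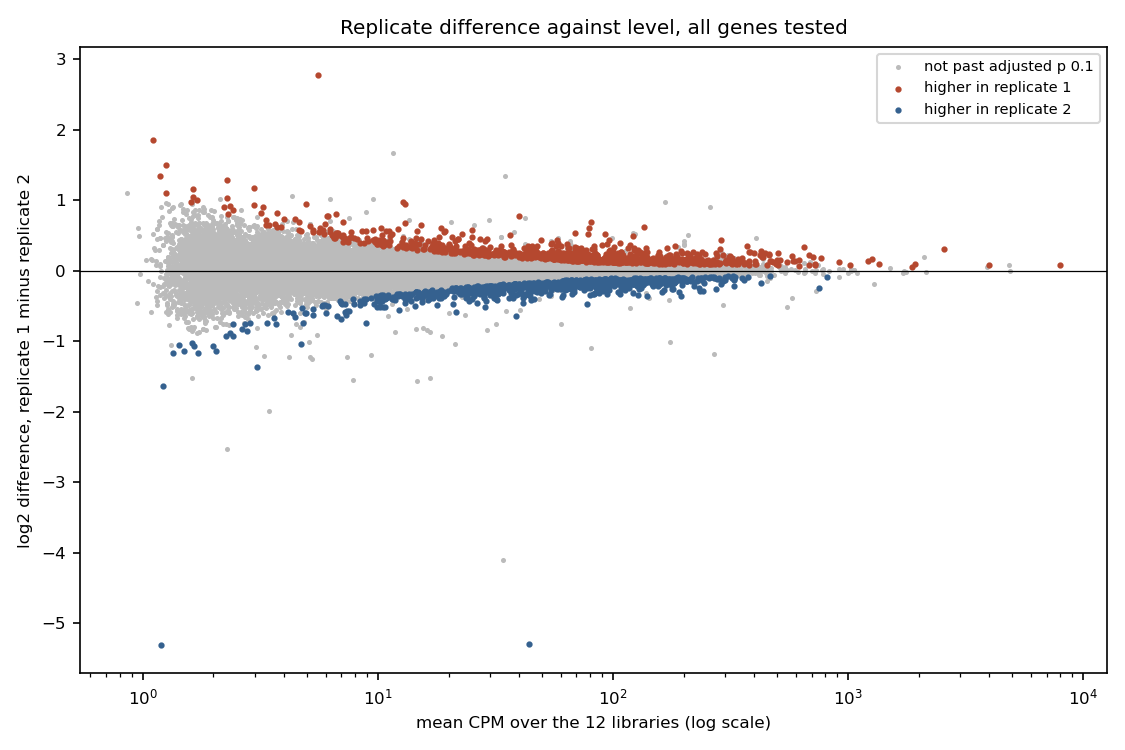
Each point is 1 of the 22173 genes tested, with its mean level in CPM on a log axis and its log2 difference, replicate 1 minus replicate 2, on the other axis. Colored points passed the adjusted p threshold of 0.1, and most of them lie within 0.5 of zero.

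Replication-dependent histone genes stood higher in replicate 2 in every clone and treatment. Of 57 tested, 31 were higher in replicate 2 and 0 in replicate 1, 55 had a negative estimate, and the median log2 difference was -0.21 (median of all genes 0.00019). The median lay between -0.24 and -0.13 in each of the 6 pairs. DESeq2 called 7 of the 57, all in the same direction. The members are the genes for the core and linker histones that package newly made DNA.

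H2AC6, which encodes a histone H2A, ranged from 114 to 134 CPM (median 120) in replicate 1 and from 142 to 166 CPM (median 160) in replicate 2. All 6 replicate 2 libraries lay above all 6 replicate 1 libraries, which occurs for 0.365% of all genes tested. The fitted difference was -0.36 ± 0.04 (SE, adjusted p = 4.79e-08, edgeR). H4C14, a histone H4 gene in the chromosome 1 cluster, ranged from 196 to 239 CPM (median 209) in replicate 1 and from 246 to 277 CPM (median 251) in replicate 2, again without overlap, and differed by -0.28 ± 0.03 (SE, adjusted p = 7.77e-08, edgeR). The H2B genes H2BC5 and H2BC9 differed by -0.30 ± 0.04 and -0.33 ± 0.04 (SE) and were higher in replicate 2 in all 6 pairs. Histone genes include near-identical copies whose reads the counting could have split, so single members are less certain than the list. RNU7-1, the U7 small nuclear RNA that trims histone transcripts, was also higher in replicate 2 (-0.44 ± 0.13, SE, adjusted p = 0.0292, edgeR, 6 of 6 pairs). On chromosome 6, which holds the largest histone clusters, 6.53% of tested genes were higher in replicate 2, and 4.54% without the listed histone genes.

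Genes of G2 phase and mitosis showed the same direction. Of 57 tested, 30 were higher in replicate 2 and 0 in replicate 1, 54 had a negative estimate, and the median was -0.19. It lay between -0.23 and -0.09 in the 6 pairs, lowest in size in the Clone 39 DMSO pair. DESeq2 called 1 of the 57, and the edgeR count ranged from 22 to 30 when single pairs were left out and was 12 without Clone 28. In a bulk culture, more cells in a phase and more transcription per cell in that phase cannot be told apart.

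HMMR, a microtubule-binding spindle protein, ranged from 54.8 to 67.5 CPM (median 58.7) in replicate 1 and from 66.1 to 87.6 CPM (median 72.9) in replicate 2. Only the lowest replicate 2 library fell within the range of replicate 1, and the difference was -0.33 ± 0.05 (SE, adjusted p = 1.08e-05, edgeR, 6 of 6 pairs). CENPE, a kinetochore motor, ranged from 28 to 46.6 CPM (median 41) in replicate 1 and from 40.4 to 61.3 CPM (median 52.3) in replicate 2, with both Clone 35 pairs at the low end of each range. Its difference was -0.41 ± 0.06 (SE, adjusted p = 2.56e-05, edgeR), and every pair was higher in replicate 2. DLGAP5, a spindle assembly factor, differed by -0.39 ± 0.07 (SE) and TOP2A, which untangles DNA before division, by -0.22 ± 0.04 (SE), both higher in replicate 2 in all 6 pairs.

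Genes of the G1/S transition and DNA replication did not follow to the same extent. Of 51 tested, 2 were higher in replicate 2 (3.92%, against 4.05% of all genes tested) and 0 in replicate 1, with a median of -0.02. RRM2, a subunit of ribonucleotide reductase, differed by -0.20 ± 0.04 (SE, adjusted p = 0.000775, edgeR) and POLA1, the catalytic subunit of the priming DNA polymerase, by -0.09 ± 0.03 (SE, adjusted p = 0.0669, edgeR). POLA1 lost its call in 5 of the 6 fits without 1 pair, and the list had 1 call without the Clone 28 dTAG-13 or the Clone 35 DMSO pair and 3 without the Clone 35 dTAG-13 pair. The difference between this list and the 2 lists above was not tested.

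**Figure D2:**
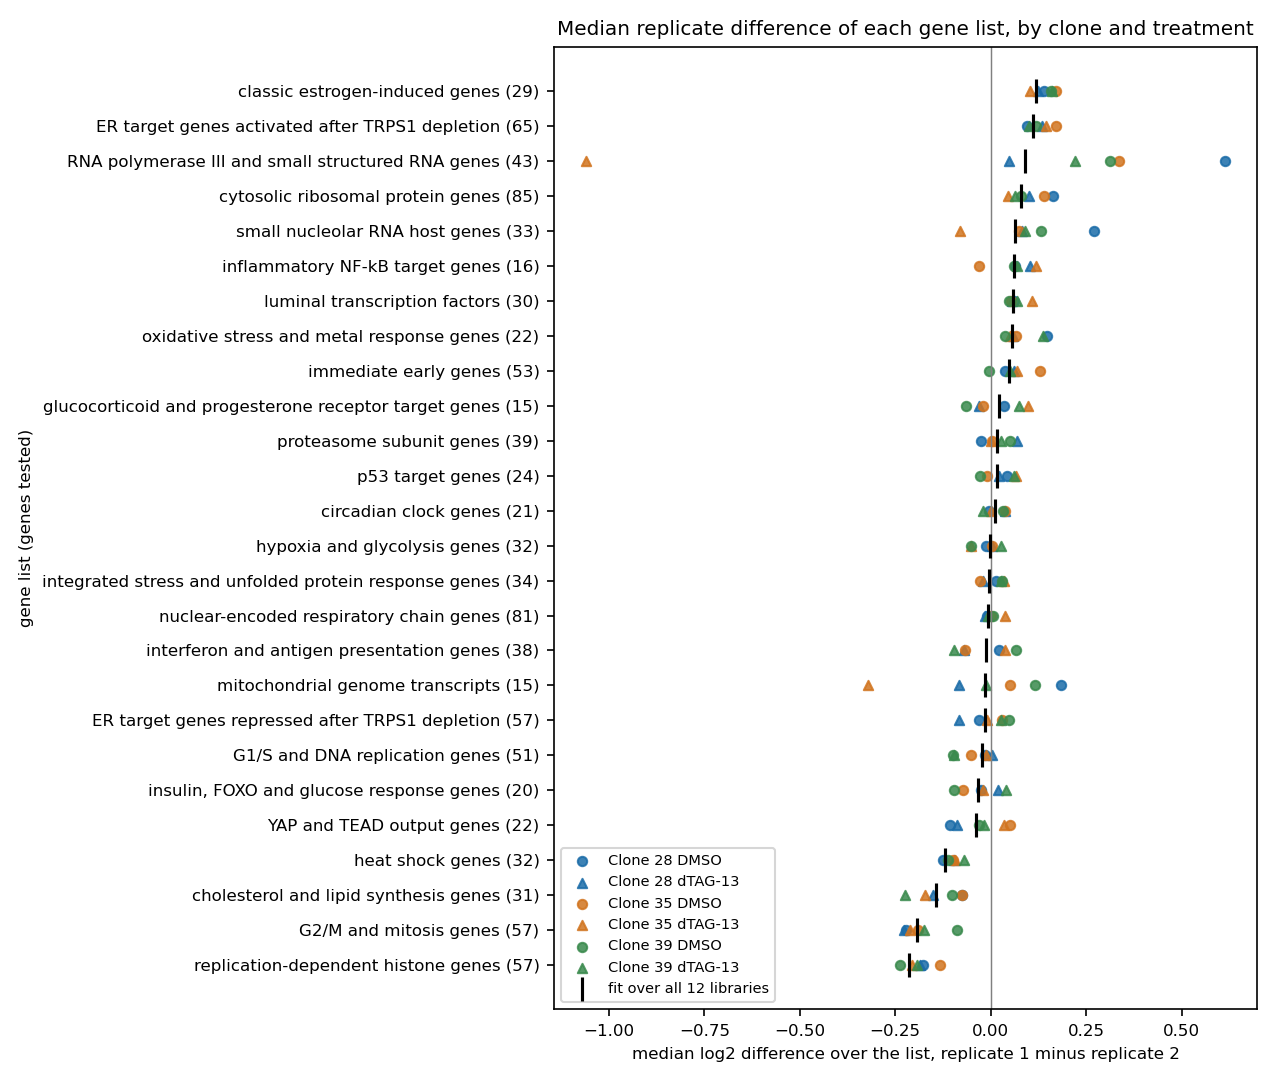
Each row is a gene list with the number of genes tested, and each point is the median log2 difference, replicate 1 minus replicate 2, of that list in 1 clone and treatment, with a black bar for the fit over all 12 libraries. In 4 lists (histones, G2/M, cholesterol and heat shock) all 6 pairs lie below zero and in 5 lists all 6 lie above zero, while the small RNA list runs from -1.06 to 0.61.

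Cholesterol and lipid synthesis genes were also higher in replicate 2. Of 31 tested, 14 were higher in replicate 2 and 0 in replicate 1, 26 had a negative estimate, and the median was -0.14, between -0.22 and -0.07 in the 6 pairs. DESeq2 called 2 of the 31. Leaving out single pairs left 9 to 12 calls, with 9 when the dTAG-13 pair of any 1 clone was out, and 9 and 8 calls were left without Clones 35 and 39. SCD, which desaturates fatty acids, ranged from 81.9 to 101 CPM (median 97.1) in replicate 1 and from 92.1 to 141 CPM (median 122) in replicate 2. The Clone 39 DMSO libraries were the lowest of both sides and made the only overlap. The fitted difference was -0.33 ± 0.04 (SE, adjusted p = 1.33e-06, edgeR, 6 of 6 pairs).

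SQLE, the squalene epoxidase of sterol synthesis, differed by -0.38 ± 0.05 (SE, adjusted p = 6.78e-06, edgeR). It ranged from 38.5 to 76.2 CPM (median 46.1) in replicate 1 and from 51.8 to 102 CPM (median 58.3) in replicate 2, overlapping because Clone 39 had the highest level on both sides. DHCR7, the last enzyme of the cholesterol pathway, and ACACA, the acetyl-CoA carboxylase that commits carbon to fatty acids, differed by -0.28 ± 0.05 and -0.18 ± 0.03 (SE) and were higher in replicate 2 in all 6 pairs. Among the other members past the threshold were FDPS (-0.34), MSMO1 (-0.34) and the sterol sensor partner INSIG1 (-0.23), named after their values were seen.

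Heat shock genes completed the set that stood higher in replicate 2. Of 32 tested, 10 were higher in replicate 2 and 0 in replicate 1, 26 had a negative estimate, and the median was -0.12, between -0.13 and -0.07 in the 6 pairs. DESeq2 called 2. There were 6 calls without the Clone 28 dTAG-13 pair and 3 without Clone 28.

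HSPH1, a large HSP70-family exchange factor and a sensitive heat shock target, ranged from 28.2 to 35.2 CPM (median 29.7) in replicate 1 and from 37.9 to 53.1 CPM (median 50) in replicate 2. The groups did not overlap, and the Clone 35 dTAG-13 pair showed the smallest gap. The difference was -0.64 ± 0.07 (SE, adjusted p = 7.06e-08, edgeR). HSP90AA1, the inducible cytosolic HSP90, ranged from 155 to 193 CPM (median 166) in replicate 1 and from 200 to 234 CPM (median 217) in replicate 2, with no overlap and a difference of -0.35 ± 0.04 (SE, adjusted p = 2.05e-08, edgeR). The HSP40 co-chaperone DNAJA1 (-0.24 ± 0.05, SE) and the HSP90 partner FKBP4 (-0.17 ± 0.04, SE) were higher in replicate 2 in all 6 pairs. HSPB6, a small heat shock protein gene, was among the 15 genes with the largest differences toward replicate 2, at -0.58 ± 0.15 (SE). RN7SL472P, a 7SL RNA pseudogene 3.27 kb beyond the end of HSP90AA1 on the same strand, differed by -1.04 ± 0.21 (SE, adjusted p = 0.00106, edgeR) at a mean of 4.71 CPM, named after its values were seen.

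**Figure D3:**
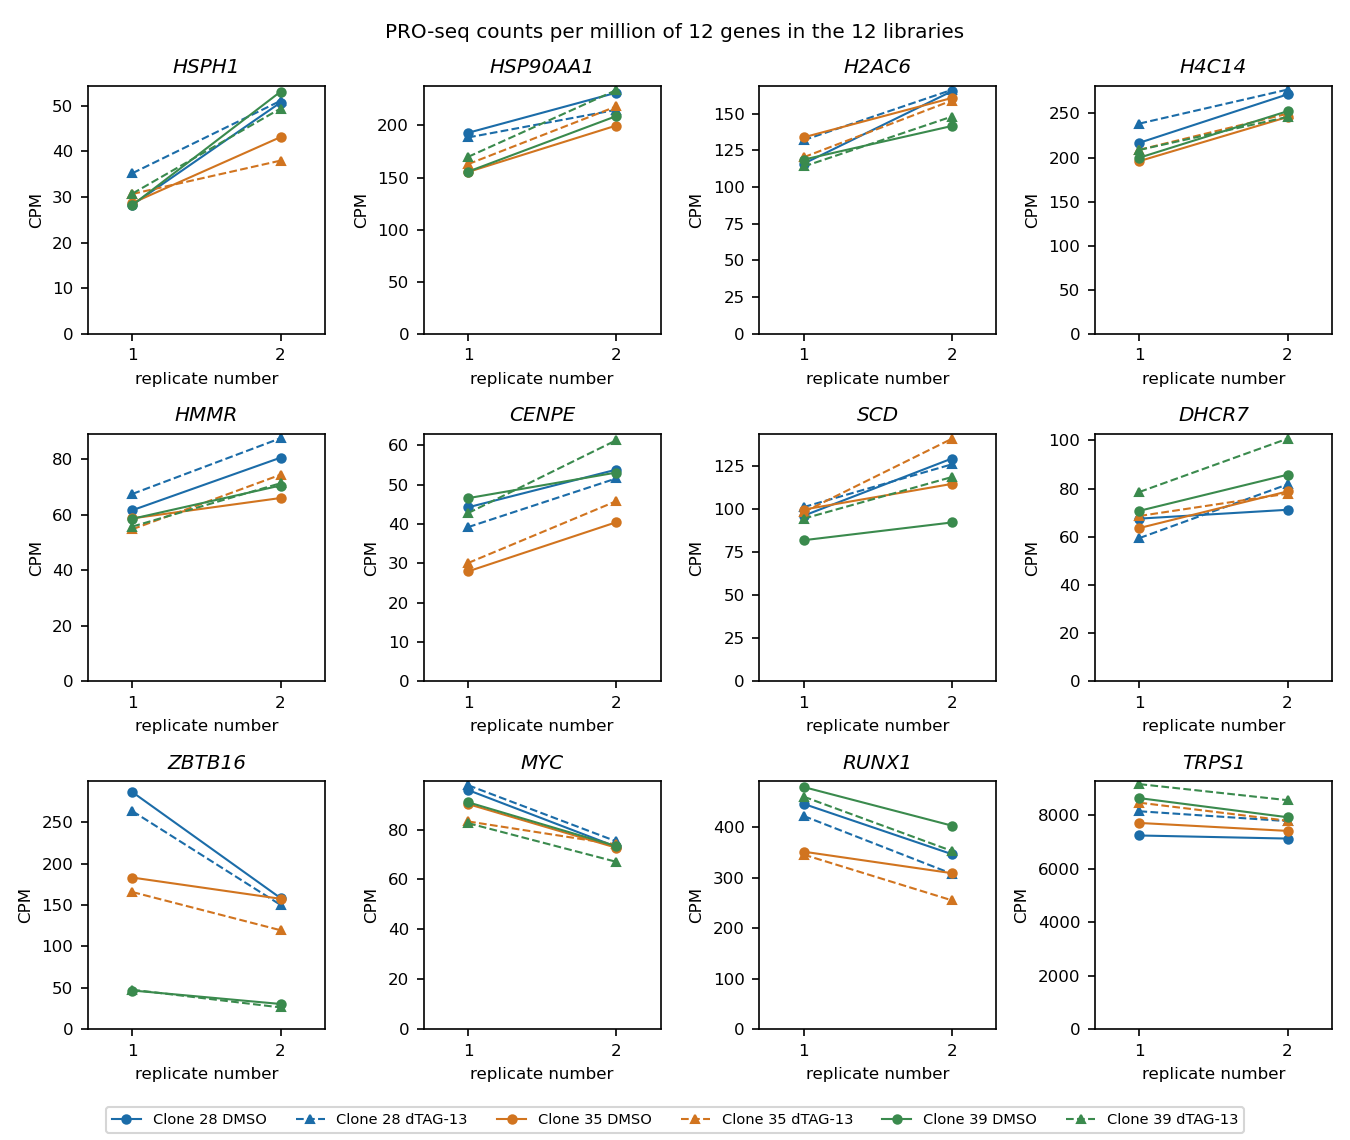
Each panel gives 1 gene in CPM from a zero baseline, with a line joining replicate 1 to replicate 2 of each clone and treatment (color for clone, solid for DMSO, dashed for dTAG-13). The lines of HSPH1, HSP90AA1, H2AC6, H4C14, HMMR, CENPE, SCD and DHCR7 all go up toward replicate 2, and those of ZBTB16, MYC, RUNX1 and TRPS1 all go down.

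Classic estrogen-induced genes were more often higher in replicate 1 than in replicate 2. Of 29 classic estrogen-induced genes tested, 14 were higher in replicate 1 and 3 in replicate 2, with a median of 0.12 that lay between 0.10 and 0.17 in the 6 pairs. DESeq2 called 1 and its local trend 9, and 0 of the 3 higher in replicate 2 were left without Clone 28. FHL2, a LIM-domain cofactor, differed by 0.33 ± 0.04 (SE, adjusted p = 1.33e-06, edgeR). It ranged from 88.3 to 218 CPM (median 111) in replicate 1 and from 73.1 to 173 CPM (median 92.4) in replicate 2, so that clones differed by more than the numbers did, while all 6 pairs agreed in direction.

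MYC, the growth-promoting transcription factor, ranged from 82.6 to 97.8 CPM (median 90.6) in replicate 1 and from 67.1 to 75.3 CPM (median 73.2) in replicate 2. The groups did not overlap, as in 0.419% of genes tested in that direction, and the difference was 0.31 ± 0.04 (SE, adjusted p = 5.08e-06, edgeR). RBBP8, a DNA end-resection factor, and RARA, the retinoic acid receptor alpha, differed by 0.23 ± 0.03 and 0.24 ± 0.03 (SE), each in 6 of 6 pairs. The members past the threshold also held GREB1 (0.12), CCND1 (0.22), NRIP1 (0.23) and TFF1 (0.81), while AREG (-0.34), MYBL1 (-0.15) and FKBP4, which is also a heat shock gene, were higher in replicate 2. These members outside the naming rule were chosen after their values were seen. ESR1 itself, at -0.03 (adjusted p = 0.476, edgeR), did not pass.

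A list that the study defined in separate libraries was added after values were seen, so its direction is not independent support. The study first took genes that estrogen activated in hormone-starved parental T47D cells. Those that changed after TRPS1 depletion in a Clone 28 time course were then sorted into an activated and a repressed list. Both lists therefore hold only estrogen-activated genes. Of 65 ER target genes that the study lists as activated after TRPS1 depletion, 35 were higher in replicate 1 and 0 in replicate 2, 62 had a positive estimate, and the median was 0.11, between 0.10 and 0.17 in the 6 pairs. DESeq2 called 7, and edgeR called 23 without Clone 28 and 21 without Clone 35. The median was 0.13 in the DMSO libraries alone and 0.13 in the dTAG-13 libraries alone. The companion list of 57 tested ER targets repressed after depletion was divided, with 7 higher on each side and a median of -0.02, and with 2 higher in replicate 2 without Clone 28 and 4 higher in replicate 1 without Clone 39. The classic estrogen list shares FHL2, GREB1, MYC, RBBP8, STC2 and TPD52L1 with the activated list, and CA12, CCND1, CXCL12, FKBP4, MYB, MYBL1 and RARA with the repressed list.

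Among 30 luminal transcription factors, 9 were higher in replicate 1 and 1, GATA3, in replicate 2, with a median of 0.0585 that was 0.0316 without the Clone 35 dTAG-13 pair. DESeq2 called 2. RUNX1, a partner of ER on chromatin, ranged from 346 to 480 CPM (median 435) in replicate 1 and from 256 to 404 CPM (median 328) in replicate 2. The Clone 35 dTAG-13 pair was lowest on both sides, every pair was higher in replicate 1, and the difference was 0.35 ± 0.03 (SE, adjusted p = 3.5e-09, edgeR). Other annotated genes overlap RUNX1 on both strands, and their reads cannot be told apart from its own. The epithelial factor EHF differed by 0.25 ± 0.03 (SE), in 6 of 6 pairs, and GATA3 by -0.09 (adjusted p = 0.00651, edgeR).

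TRPS1, the tagged gene, had the highest level of the named genes, from 7250 to 9172 CPM (median 8316) in replicate 1 and from 7134 to 8571 CPM (median 7794) in replicate 2. The groups overlapped widely because clones differed, but each pair was higher in replicate 1, by 0.08 ± 0.01 (SE, adjusted p = 8.38e-05, edgeR). Counts over the gene measure its transcription and do not check degradation of the protein.

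Housekeeping gene families divided. Of 85 cytosolic ribosomal protein genes, 17 were higher in replicate 1 and 0 in replicate 2, with a median of 0.08. There were 21 calls without the Clone 35 dTAG-13 pair, 10 and 9 calls without the Clone 28 DMSO and dTAG-13 pairs, 9 without the Clone 35 DMSO pair, 4 without Clone 28 and 9 without Clone 35, and DESeq2 called 0 of them (0 with its local trend as well). RPS19 and RPS9, both small-subunit proteins, differed by 0.19 ± 0.04 and 0.18 ± 0.04 (SE) without overlap between the groups, and RPL37 and RPL14 of the large subunit by 0.14 ± 0.03 and 0.17 ± 0.04 (SE). Of 81 nuclear-encoded respiratory chain genes none passed, and their median was -0.01. The proteasome list had 2 of 39 higher in replicate 1 (5.13%, against 3.93% of all genes tested). These were the activator PSME4 (0.19 ± 0.04, SE) and the subunit PSMB2 (0.17 ± 0.06, SE). Only 1 call was left without either Clone 28 pair, the Clone 35 dTAG-13 pair or the Clone 39 DMSO pair, and PSMB2 lost its call in 5 of the 6 fits without 1 pair.

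Small RNA genes showed how far 1 pair could move a list. Of 43 genes transcribed by RNA polymerase III or encoding small structured RNAs, 0 were higher in replicate 1 and 1 (RNU7-1) in replicate 2. Without the Clone 35 dTAG-13 pair 13 were higher in replicate 1, and the list median went from 0.09 to 0.37. The DMSO libraries alone had 18 higher in replicate 1 (median 0.49). The dTAG-13 libraries alone, which include that pair, had 0 (median -0.27). Small nucleolar RNA host genes had 7 of 33 higher in replicate 1 and 2 in replicate 2, and 11 and 0 without that pair. The count for replicate 1 was 3 and 2 without the Clone 28 DMSO and dTAG-13 pairs, 4 without the Clone 35 DMSO pair, and 4 and 1 without the Clone 39 DMSO and dTAG-13 pairs, and that for replicate 2 was 0 or 1 without any pair. MIR17HG, the host of the miR-17 cluster, led them at 0.35 ± 0.08 (SE, adjusted p = 0.00959, edgeR, 6 of 6 pairs). None of the 15 mitochondrial genome transcripts passed, with MT-RNR2 at -0.00 and MT-RNR1 at 0.05, and 1 was higher in replicate 1 without that pair.

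**Figure D4:**
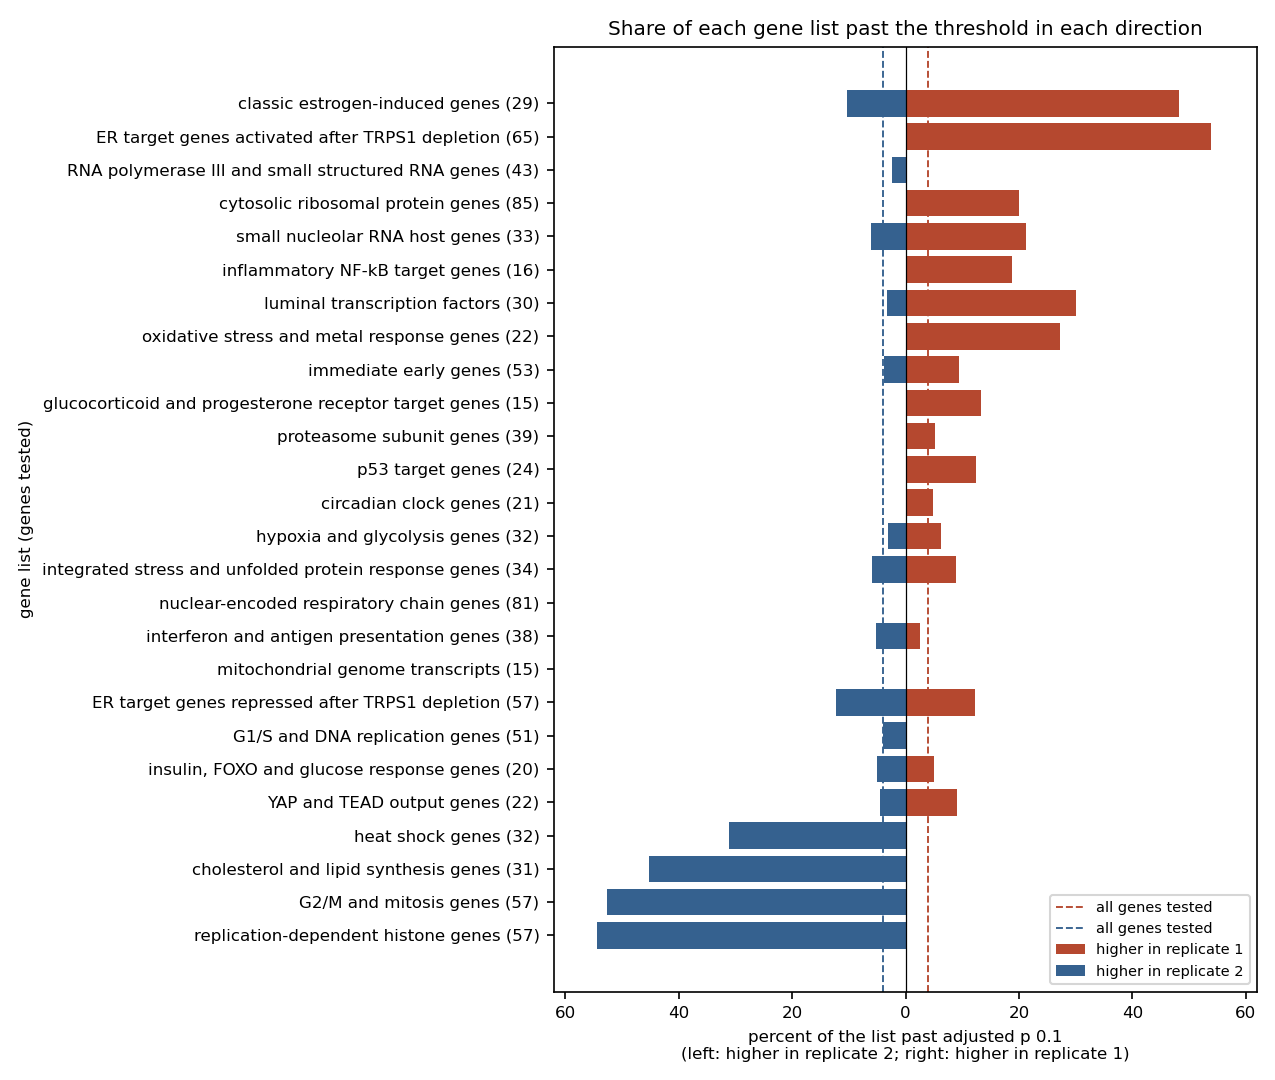
Bars give the percent of each gene list past the adjusted p threshold of 0.1, to the right for genes higher in replicate 1 and to the left for genes higher in replicate 2. Dashed lines mark the shares over all genes tested, 3.93% and 4.05%, and histones, G2/M, cholesterol and heat shock genes reach far beyond the left line.

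Signaling and stress lists had fewer calls, and several had shares near the 3.93% and 4.05% of all genes tested. Among 22 oxidative stress and metal response genes, 6 were higher in replicate 1 and 0 in replicate 2 (median 0.06), with 3 left without the Clone 28 or the Clone 35 dTAG-13 pair and without Clone 35, and 2 without Clone 28 or Clone 39. SLC30A1, the zinc exporter that zinc induces, ranged from 32.7 to 54.1 CPM (median 40.7) in replicate 1 and from 23.5 to 37.8 CPM (median 29.2) in replicate 2, and differed by 0.50 ± 0.07 (SE, adjusted p = 4.65e-06, edgeR, 6 of 6 pairs). The thioredoxin reductase gene TXNRD1 (0.17 ± 0.04, SE) and OSGIN1 (0.17 ± 0.04, SE) shared its direction.

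Of 53 immediate early genes, which respond to growth factor signals within minutes, 5 were higher in replicate 1 and 2 in replicate 2 (median 0.05). SPRED2, a brake on Ras signaling, differed by 0.38 ± 0.04 (SE, adjusted p = 4.69e-08, edgeR) and ZFP36L1 by 0.15 ± 0.03 (SE). JUN ran the other way, from 42.8 to 54.5 CPM (median 48.6) in replicate 1 and from 58.2 to 63.9 CPM (median 60.2) in replicate 2, without overlap (-0.33 ± 0.06, SE, adjusted p = 9.88e-05, edgeR). The shares of the list past the threshold were 9.43% toward replicate 1 and 3.77% toward replicate 2, against 3.93% and 4.05% of all genes tested. DUSP4, a phosphatase that silences ERK signaling, was 0.77 ± 0.17 (SE) higher in replicate 1.

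In the insulin and glucose list 1 of 20 members passed on each side (5% each way, against 3.93% and 4.05% of all genes tested). These were FBXO32, a FOXO target, at 0.28 ± 0.03 (SE) and TXNIP, which glucose induces, at -0.36 ± 0.06 (SE, adjusted p = 0.000131, edgeR). All 6 TXNIP values were higher in replicate 2, without overlap. In the hypoxia and glycolysis list 2 of 32 were higher in replicate 1 (6.25%) and 1 in replicate 2 (3.12%). The first count was 1 without any single pair other than Clone 28 DMSO, and the second was 2 without the Clone 35 DMSO or the Clone 39 dTAG-13 pair. PFKFB3 and PFKFB4, which encode enzymes that set the glycolytic activator fructose bisphosphate, differed in opposite directions, at 0.23 ± 0.02 and -0.32 ± 0.07 (SE). The glucocorticoid and progesterone receptor list had 2 of 15 higher in replicate 1, ERRFI1 (0.29 ± 0.05, SE) and ZBTB16, both in 6 of 6 pairs. ZBTB16 did not pass without the Clone 28 dTAG-13 or the Clone 39 DMSO pair, nor in the DMSO libraries alone (adjusted p = 0.366, edgeR), and 1 call was left in the list without either of those pairs.

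NF-kB targets had 3 of 16 higher in replicate 1, namely BCL3 (0.30 ± 0.06, SE), NFKB1 (0.14 ± 0.04) and RELB (0.35 ± 0.11), of which 1 was left without the dTAG-13 pair of any 1 clone. The integrated stress and unfolded protein response list had 3 of 34 higher in replicate 1, led by SLC7A5 (0.22 ± 0.04, SE) and XBP1 (0.12 ± 0.03), and 2 in replicate 2, SESN2 (-0.30 ± 0.09) and HSP90B1 (-0.11 ± 0.04), of which 0 were left without the Clone 28 DMSO, the Clone 28 dTAG-13 or the Clone 35 dTAG-13 pair. Of the 3 higher in replicate 1, 1 was left without the Clone 39 dTAG-13 pair. Targets of p53 had 3 of 24 higher in replicate 1, TP53I3 (0.20 ± 0.04, SE), PLK2 (0.16 ± 0.03) and CDKN1A (0.25 ± 0.06). YAP and TEAD output had 2 of 22 higher in replicate 1, CRIM1 (0.26 ± 0.03, SE) and TEAD1 (0.12 ± 0.04), and 1 in replicate 2, ANLN (-0.16 ± 0.04), which is also a mitosis gene. The count for replicate 1 was 1 without the Clone 28 dTAG-13, the Clone 35 DMSO or either Clone 39 pair, and that for replicate 2 was 2 without either Clone 35 pair or the Clone 39 dTAG-13 pair. TEAD1 lost its call in 4 of the 6 fits without 1 pair. Of 38 interferon and antigen presentation genes, MX1 (0.30 ± 0.06, SE) was higher in replicate 1 (2.63% of the list). PSMB9 (-0.33 ± 0.11) and HLA-E (-0.28 ± 0.09) were higher in replicate 2 (5.26%). The 2 higher in replicate 2 went to 0 without the Clone 28 dTAG-13 or the Clone 39 DMSO pair and to 1 without the Clone 35 or the Clone 39 dTAG-13 pair. Of 21 circadian clock genes only BHLHE40 passed (4.76% of the list, 0.26 ± 0.06, SE, 5 of 6 pairs). There were 2 calls without the Clone 39 DMSO pair and 0 without Clone 35.

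The 15 genes with the largest differences in each direction, among those past the threshold that went one way in all 6 pairs at a mean of at least 5 CPM, include some list members. CLCN4, a chloride-proton exchanger, led those higher in replicate 1, with 11.3 to 27.5 CPM (median 15.2) against 6.02 to 14.2 CPM (median 7.25) and a difference of 0.97 ± 0.12 (SE, adjusted p = 7.46e-07, edgeR). CCDC122 followed at 0.94 ± 0.11 (SE) and the noncoding RNA LINC02649 at 0.78 ± 0.07 (SE), the latter with 38.6 to 59.6 CPM against 24.6 to 37.6 CPM and no overlap. The kinesin gene KIF13B (0.60 ± 0.05, SE), the transcription factor gene CREB5 (0.60 ± 0.10, SE) and AGXT2, a mitochondrial aminotransferase (0.69 ± 0.06, SE), were among the 15. ZBTB16, which encodes the zinc finger repressor PLZF, ranged from 46.8 to 286 CPM (median 175) in replicate 1 and from 26.3 to 158 CPM (median 135) in replicate 2, with Clone 39 lowest throughout (0.62 ± 0.11, SE, adjusted p = 0.0358, edgeR).

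Toward replicate 2 the 4 largest were the pseudogene LRRC37A9P (-0.74 ± 0.14, SE), CAVIN1, a coat protein of caveolae, with 3.69 to 6.71 CPM against 7.06 to 10.2 CPM and no overlap (-0.68 ± 0.16, SE, adjusted p = 0.00568, edgeR), ENSG00000285188 (-0.65 ± 0.16, SE) and HSPH1. The kinase genes MAP2K6 (-0.58 ± 0.09, SE), which activates p38, and DYRK3 (-0.51 ± 0.08, SE), and the Wnt effector gene LEF1 (-0.59 ± 0.15, SE), were among the 15. The smallest p over all genes belonged to MED13L, a subunit of the Mediator kinase module, at a mean of 2836 CPM in replicate 1 and 2296 CPM in replicate 2 (0.30 ± 0.01, SE, adjusted p = 2.76e-19, edgeR, 6 of 6 pairs), named after its values were seen.

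The 24 differences over 1 came almost all from genes under 5 CPM, with 2 exceptions that 1 library made. GBA3, a cytosolic glucosidase gene, stood at 503 CPM in the Clone 35 dTAG-13 replicate 2 library and at 1.17 to 4.81 CPM in the other 11 (fitted -5.30, adjusted p = 0.0796, edgeR). The noncoding gene ENSG00000254754 stood at 56.6 CPM in the Clone 35 DMSO replicate 1 library and at 0 to 4.66 CPM elsewhere (fitted 2.77). Each fitted value describes 1 library rather than a replicate number. LINC01108, with the largest fitted value (-5.31), held 67.2% of its summed CPM in the Clone 39 DMSO replicate 2 library.

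Longer genes passed more often. In genes under 2 kb 0.818% were higher in replicate 1 and 2.21% in replicate 2, and in genes over 100 kb the shares were 5.68% and 6.35%. Longer genes collect more reads, and the part of read number in this was not tested. Neighbors on one strand also went together: of 870 genes higher in replicate 1 with a nearest tested neighbor that did not overlap them, 79 (9.08%) had a neighbor higher in replicate 1, against 4.02% of genes that did not pass. For genes higher in replicate 2 the shares were 7.68% and 4.08%. LINC02649 lies 16.5 kb beyond PFKFB3 on the same strand, and KIF13B lies 69.9 kb from DUSP4, all 4 higher in replicate 1.

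Within single clones fewer genes passed. Both treatments of a clone and number share a collection, so these fits compare 1 collection with 1 other and hold no replication of the collection. Clone 28 had 169 higher in replicate 1 and 192 in replicate 2, 361 in all (1.63%; 0.762% and 0.866% by direction). Clone 35 had 143 and 90, 233 in all (1.05%; 0.645% and 0.406%). Clone 39 had 184 and 82, 266 in all (1.2%; 0.83% and 0.37%). With library totals in place of TMM the Clone 39 split was 93 and 76, and with no filter on low counts the Clone 35 split was 131 and 152. A test of whether the difference differed between clones called 2 genes of 22173 (0.00902%), ENSG00000253281 and RNU1-89P, with 1006 at an unadjusted p under 0.05 (edgeR) and 1 gene by DESeq2. RNU1-89P, a U1 small nuclear RNA pseudogene, had 7.99 to 9.58 CPM in replicate 1 and 3.8 to 45.5 CPM in replicate 2, where the 45.5 CPM stood in Clone 28 DMSO.

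Fewer genes also passed within each treatment, and those in DMSO lay mostly toward replicate 1. The DMSO libraries alone had 491 genes higher in replicate 1 and 207 in replicate 2 (3.15% in all; 2.21% and 0.934%), and the dTAG-13 libraries alone had 321 and 315 (2.87% in all; 1.45% and 1.42%). The test of a difference between treatments called 12 genes (0.0541%; edgeR, 1144 at an unadjusted p under 0.05; 3 by DESeq2). Led by the 5S ribosomal pseudogene RNA5SP150, TSPAN18, which encodes a tetraspanin, and the signal recognition particle RNA pseudogene RN7SL5P, these had differences between treatments of -2.58, -1.93 and -1.54. Few calls in these tests do not show that clones or treatments behaved alike.

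**Figure D5:**
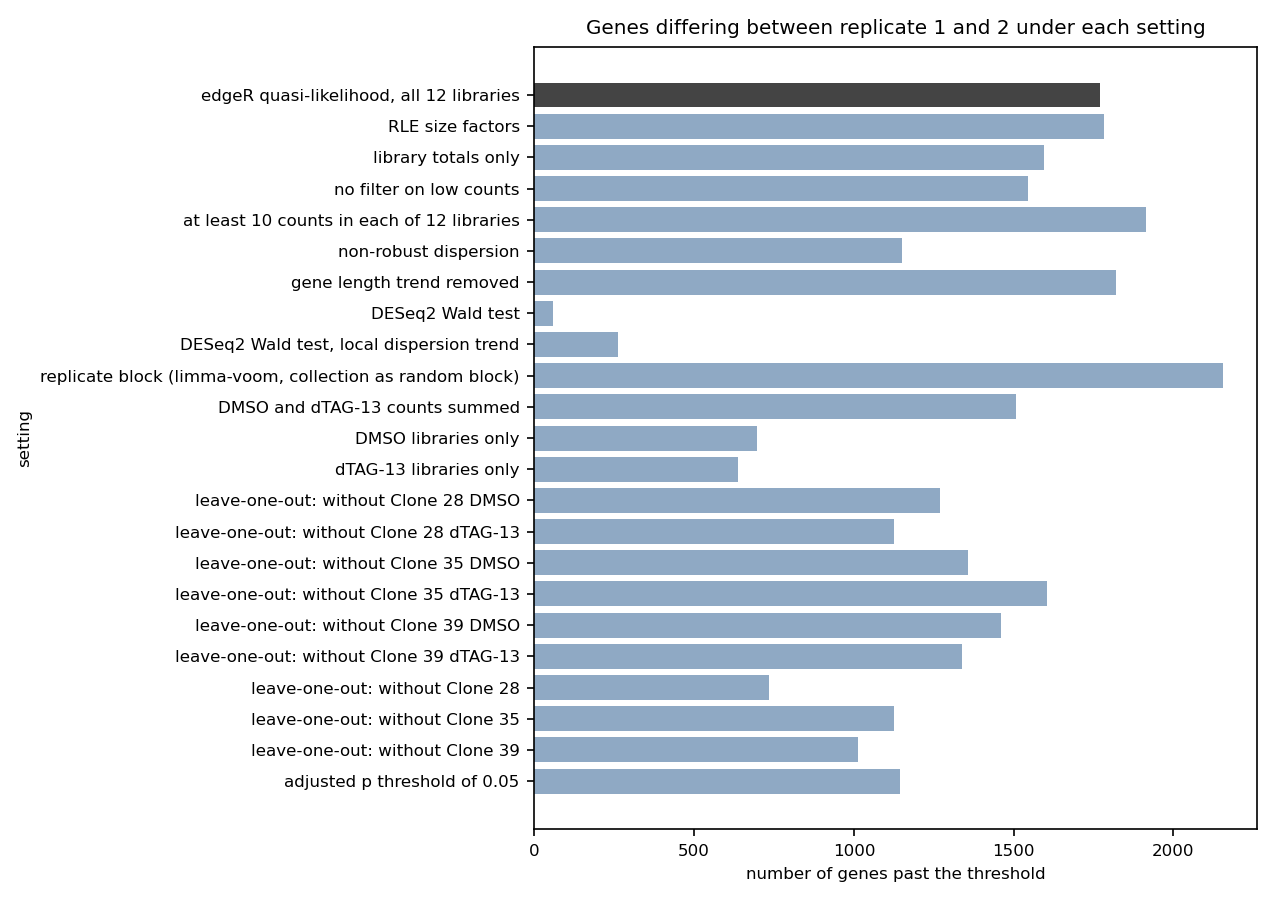
Bars start at 0 and give the number of genes past the threshold under each setting, with the reported fit of 1771 genes in dark gray. Counts run from 57 with DESeq2 to 2154 with the collection as a random block.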

How the data were processed

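PRO-seq counts were taken for the 12 libraries with replicate number 1 or 2 (3 clones, DMSO or dTAG-13, 90 minutes). Per the study's methods and the submitters' processing notes, the authors trimmed adapters (cutadapt 1.8.1), deduplicated by unique molecular identifiers (fqdedup), removed ribosomal DNA reads, aligned to hg38 (Bowtie2 2.4.4, SAMtools 1.9) and counted reads in genes with bedtools. Annotation and strand setting of the counting are not given in the sources used here, so antisense and overlapping genes cannot be separated. The values the authors deposited are raw counts, whole reads per gene, for 60605 genes, of which 60463 matched GENCODE 44 and 10354 had no read in the 12 libraries. Depth was 3933945 to 5983480 counts per library. Replicate 1 against 2 within each group gave a chi-square, pooled over genes, of 2.17 to 6.58 for each degree of freedom. The pooled spread thus exceeded counting error. After the fit, the median residual chi-square over genes was 1.04 for each degree of freedom. Whether the typical gene exceeded counting error was not tested. The mean was 43.8 in the 563 genes over 1000 counts, and 357 genes exceeded 10.

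Counts were fitted in R 4.3.3 with edgeR 4.0.16 (filterByExpr with a minimum count of 10, TMM, robust quasi-likelihood, group and number in the model, 5 residual degrees of freedom, Benjamini-Hochberg over 22173 genes). Differences are log2, replicate 1 minus replicate 2, and CPM uses TMM library sizes, except for the cell type markers, whose CPM uses total counts. DESeq2 1.42.0, limma 3.58.1, RLE, library totals, filters, a length correction, summed counts and left-out pairs or clones were alternatives. The pairing of treatments within a collection comes from the study's methods, and the within-collection correlation was -0.069. The fit was tested on simulated data. The members and lists were chosen with earlier results of these data known. Named genes were the 15 largest each way past adjusted p 0.1 at 5 CPM or more with 6 pairs agreeing, up to 4 per list by p, TRPS1, and up to 3 per test of differing differences. Lists without a call gave their 2 highest members. Some genes that the rule names are not reported here.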

Additional observations from a re-analysis of the deposited data

Results flagged for a closer look

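Over 64 sets of 6 pair differences, 5 had a pair set apart from the other 5 by more than Dixon's 95% limit, where chance alone gives about 3.2 (1 in 20). Of these, 4 concerned the Clone 35 dTAG-13 pair. Its difference in the percent of counts from the mitochondrial genome was -0.812 percentage points, against 0.0105 to 0.388 in the others. Its median log2 difference over RNA polymerase III and small structured RNA genes was -1.06, against 0.05 to 0.61. Its median over luminal transcription factors was 0.107, against 0.049 to 0.0682. MYO1G, a class I myosin gene, differed by 1.53 in this pair and by 0.29 to 0.60 in the others. FBXO43, an inhibitor of the anaphase-promoting complex, differed by -1.55 in the Clone 28 DMSO pair, against -0.61 to -0.15.

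The replicate difference itself differed between clones for ENSG00000253281 and RNU1-89P (adjusted p = 0.0766 for each, edgeR). It differed between treatments for RNA5SP150 (-2.58, dTAG-13 difference minus DMSO difference), TSPAN18 (-1.93) and RN7SL5P (-1.54).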

How the results depend on the processing

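The count of 1771 genes went to 57 with DESeq2, 261 with DESeq2's local trend (chosen after seeing the data), 1149 with non-robust dispersion, 698 in DMSO only, 636 in dTAG-13 only and 1145 at a threshold of 0.05. It ranged from 1127 to 1603 with 1 pair left out, lowest without Clone 28 dTAG-13, and was 735 without Clone 28, 1127 without Clone 35 and 1013 without Clone 39. It stayed within 1.5 times with RLE (1782), library totals (1595), either filter (1546 and 1913) and the length correction (1820). With the collection as a random replicate block it was 2154, and with the treatments of a collection summed 1506. The median of all genes moved by under 0.006 in each setting.

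Of 96 named genes past the threshold none reversed. DESeq2 gave an adjusted p for 63 of them and called 20. For the difference between clones, 80 genes passed with no filter, 0 with the strict filter, 0 at a threshold of 0.05 and 1 by DESeq2, in place of 2. For that between treatments, 182 passed with no filter and 3 by DESeq2, in place of 12. At a threshold of 0.05 Clone 28 had 210, Clone 35 had 153 and Clone 39 had 153 genes, and Clone 39 had 169 with library totals. Among named genes that did not pass over all libraries, MT-RNR2 (0.26), ENSG00000253281 (1.67), RNA5SP150 (0.66) and RN7SL5P (0.54) reversed and passed in DMSO only, and ENSG00000253281, at -1.22 over all libraries, also without Clone 35 dTAG-13 (1.67) and without Clone 35 (1.88), with -2.87 as its lowest value without 1 clone (Clone 28). In dTAG-13 only, TSPAN18 (0.44 over all libraries, -0.58) and MT-RNR1 (0.05 and -0.11) changed sign without passing in either fit. The cause was not tested. In simulated data with 200 changed genes, 15% of differences of 0.25 were recovered. The simulation held no shared collection effect and fewer changed genes than the 1771 that passed here. It therefore does not give the share of small differences missed in these libraries.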
